A study of Rattus norvegicus with 18 samples.

Results

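Il33 and a set of cytokine and chemokine genes that glial cells can express were followed across arrays of rat spinal cord material given bone morphogenetic protein (BMP), ciliary neurotrophic factor (CNTF) or neither. The set holds 10 genes (Il33, Il18, Il6, Ccl2, Cxcl1, Cxcl10, Cxcl12, Cx3cl1, Csf1 and Cd14) of the 14217 that the array annotation names. Every probe set whose annotated symbol is one of these genes was taken, which gave 16 of the 31042 probe sets tested. The genes were chosen by results from these same arrays: the lower Il33 and the higher Cd14 with CNTF were known when the set was drawn up, and which values decided the others is not recorded. The values of Il33 and Cd14 with CNTF are therefore given as a description with no test. The calls of the other genes describe them too and lend no independent support.

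Total RNA from Rattus norvegicus was measured on 18 single-channel Affymetrix arrays, 6 in each of 3 groups. The labels describe the control group as "14 NT control" with no time, and the treated groups by 10 ng/mL BMP or 10 ng/mL CNTF and 4d, taken as 4 days. A difference in time between control and treated material therefore cannot be told apart from the treatment. They name neither the cells nor the culture, nor the animals' age, nor which BMP was added, and "14 NT", which all 18 descriptions share, was not interpreted. Each title ends in a number from 1 to 6 that occurs once per group, so that control 1, BMP 1 and CNTF 1 form a same-numbered set. Separate animals or cultures are not stated for the 6 arrays of a group, so p-values measure array-to-array spread, which may be technical. A level is log2(intensity + 116.655), where the constant is the 20th percentile of all deposited values and the table's median corresponds to 9.75. On this scale the change of a dim gene is understated. Levels are not compared between probe sets.

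Interleukin-33 is an alarmin of the interleukin-1 family: it is stored in the nucleus, released when cells are damaged, and read by the receptor ST2 (Il1rl1) on immune cells and microglia. In the central nervous system it is made mainly by astrocytes and oligodendrocytes. Chemokines draw leukocytes and neural precursors through G protein-coupled receptors, and CSF-1 keeps microglia alive through its receptor Csf1r. CNTF signals through the receptor subunit gp130 and STAT3, while BMP signals through SMAD proteins; NF-kB is the main transcription factor behind inflammatory chemokines such as Cxcl1.

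Marker genes described the material. Of 16 markers of microglia and macrophages, 0 reached the table's median in their mean level, and their highest group mean was 9.06. Their summed intensity was 1709 to 2589 in the controls, 1766 to 2225 with BMP and 1636 to 2365 with CNTF. By limma 0 of the 16 were called in either comparison with the controls, also 0 at an unadjusted p under 0.05 and 0 with the title number as a block. Markers of endothelial cells (7 measured) and lymphocytes (5 measured) also had 0 members at the table's median, whereas 8 of 10 astrocyte markers, 7 of 11 oligodendrocyte markers, 6 of 6 precursor markers and 7 of 11 neuronal markers lay at or above it. With BMP 6 of 11 oligodendrocyte markers and 6 of 6 precursor markers fell. Neuronal markers rose for 3 of 11 (Gad1, Stmn2 and Nefl) and astrocyte markers for 1 of 10 (Aqp4, +2.33, adjusted p = 0.0295). So did 1 of 7 endothelial markers (Tek) and 1 of 9 fibroblast and mural markers (Col1a2). Of all named genes 4.21% rose and 3.02% fell, and 10.6% and 9.28% with the title number as a block. With the block 7 oligodendrocyte and 6 precursor markers fell. Risers were then 7 neuronal, 2 astrocyte, 1 endothelial and 5 fibroblast and mural markers. Other astrocyte markers went both ways (list median -0.02), with Gfap at +2.33 (adjusted p = 0.0867, block 0.0169) and Aldh1l1 at -0.96 (adjusted p = 0.232). The arrays measured bulk RNA, so fewer cells of a type and less RNA per cell cannot be told apart.

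The sequences just upstream of the start sites are shown for Il33, the member with the largest fall, and for Cxcl1, the chemokine that rose with CNTF. They are the 250 bases before each RefSeq start in the rat assembly GRCr8, written 5′ to 3′ on the gene's strand. Il33 has starts at 2 places, with windows at chr1:237115323-237115572 and chr1:237134696-237134945, both on the plus strand. The Cxcl1 window is chr14:17479322-17479571 on the minus strand. Capitals mark matches to the NF-kB letters GGGNNNNNCC.
Il33 start 1: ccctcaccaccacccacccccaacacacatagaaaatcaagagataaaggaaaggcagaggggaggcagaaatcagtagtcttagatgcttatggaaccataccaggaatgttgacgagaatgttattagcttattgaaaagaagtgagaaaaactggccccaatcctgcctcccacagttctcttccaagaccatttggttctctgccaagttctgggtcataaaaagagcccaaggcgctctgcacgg
Il33 start 2: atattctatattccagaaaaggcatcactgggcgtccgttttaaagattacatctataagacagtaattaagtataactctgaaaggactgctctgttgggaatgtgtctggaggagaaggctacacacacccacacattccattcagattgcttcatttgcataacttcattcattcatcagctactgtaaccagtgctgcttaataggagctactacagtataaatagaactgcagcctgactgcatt
Cxcl1: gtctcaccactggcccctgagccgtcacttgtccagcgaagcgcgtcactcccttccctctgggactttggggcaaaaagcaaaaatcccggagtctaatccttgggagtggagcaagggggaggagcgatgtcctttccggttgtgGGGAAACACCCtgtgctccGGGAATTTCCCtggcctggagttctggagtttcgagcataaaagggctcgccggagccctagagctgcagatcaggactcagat
Letters were searched on both strands for a STAT motif (TTCNNNGAA), the kB motif above and a GC-rich SMAD motif (GGCGCC). RefSeq windows were matched for 8 of the 10 genes, with 9 starts. The STAT letters were in 0 of these 9 windows and in 7.67% of all 33469 windows of this length. The kB letters were in 4 of the 9 windows (Il18, Il6, Cxcl1 and Cxcl10) and in 42.3% of all windows. The window of Cxcl1 held 4 matches, starting 103, 102, 84 and 83 bases before the start and overlapping in pairs. The SMAD letters were in 2 of the 9 windows (Cxcl12 and Cx3cl1) and in 8.69% of all windows. A match is a string of letters and not a bound site, and no match says nothing about binding elsewhere.

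Il33 was lower with CNTF, and with BMP its difference from the controls lay within the spread of the arrays. Its brighter probe set, 1373970_at, stood at 12.70, 12.19, 12.16, 11.22, 11.92 and 12.36 in controls 1 to 6. The BMP arrays read 12.20, 12.17, 11.78, 10.72, 12.43 and 12.83, and the CNTF arrays 10.87, 9.63, 9.66, 10.52, 10.78 and 10.07. All 6 CNTF arrays lay below all 6 controls, and the BMP arrays spanned the range of the controls and went beyond it at both ends. The group means were 12.09 ± 0.50 in the controls, 12.02 ± 0.72 with BMP and 10.26 ± 0.55 with CNTF (SD, n = 6). CNTF minus control was -1.84 ± 0.31 (limma SE), or 3.57-fold lower. BMP minus control was -0.07 ± 0.31 (limma adjusted p = 0.943). The BMP differences of both Il33 probe sets are descriptions only, since they hold the controls against which Il33 was chosen.

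Within same-numbered pairs the CNTF array was lower in 6 of 6, with CNTF minus control at -1.83, -2.56, -2.50, -0.70, -1.13 and -2.29 for numbers 1 to 6. Number 4 gave the smallest fall, and its control and BMP arrays were also the lowest of their groups. With BMP the pairs went both ways: 2 of 6 were higher, numbers 5 and 6, and 4 of 6 were lower. BMP minus CNTF was 1.76 ± 0.31, with the BMP array higher in 6 of 6 pairs. The BMP and CNTF groups nevertheless overlapped, because BMP 4 at 10.72 lay below CNTF 1 at 10.87.

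The other Il33 probe set, 1389581_at, had the same pattern at dimmer levels. Its lowest, median and highest levels were 10.18, 10.61 and 11.46 in the controls, 9.82, 10.65 and 11.62 with BMP, and 8.63, 9.04 and 10.16 with CNTF. Again no CNTF array reached the lowest control. The CNTF difference was -1.50 ± 0.30 (2.82-fold lower, lower in 6 of 6 pairs), and that with BMP was -0.03 ± 0.30 (adjusted p = 0.973). Across the 18 arrays the 2 probe sets, which share every array, correlated at r = 0.94. With all 3 arrays of number 5 left out, CNTF minus control on this probe set was -1.41. Markers of the glial cells that can make Il33 were read in the same comparison. Of the astrocyte markers, 1 of 10 rose with CNTF (Gfap, +3.96, adjusted p = 0.00708) and 0 fell by limma. At an unadjusted p under 0.05, 3 were higher and 1 lower, and with the title number as a block 2 rose and 1 fell. The lower marker in both counts was Aldh1l1, at -1.4 (limma adjusted p = 0.118, block 0.0301). The median difference of the astrocyte list with CNTF was -0.04. Of oligodendrocyte markers 0 of 11 and of precursor markers 0 of 6 changed with CNTF (0 and 2 at an unadjusted p under 0.05; 2 and 1 with the title number as a block). The part of these markers in the result was not tested.

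**Figure D1:**
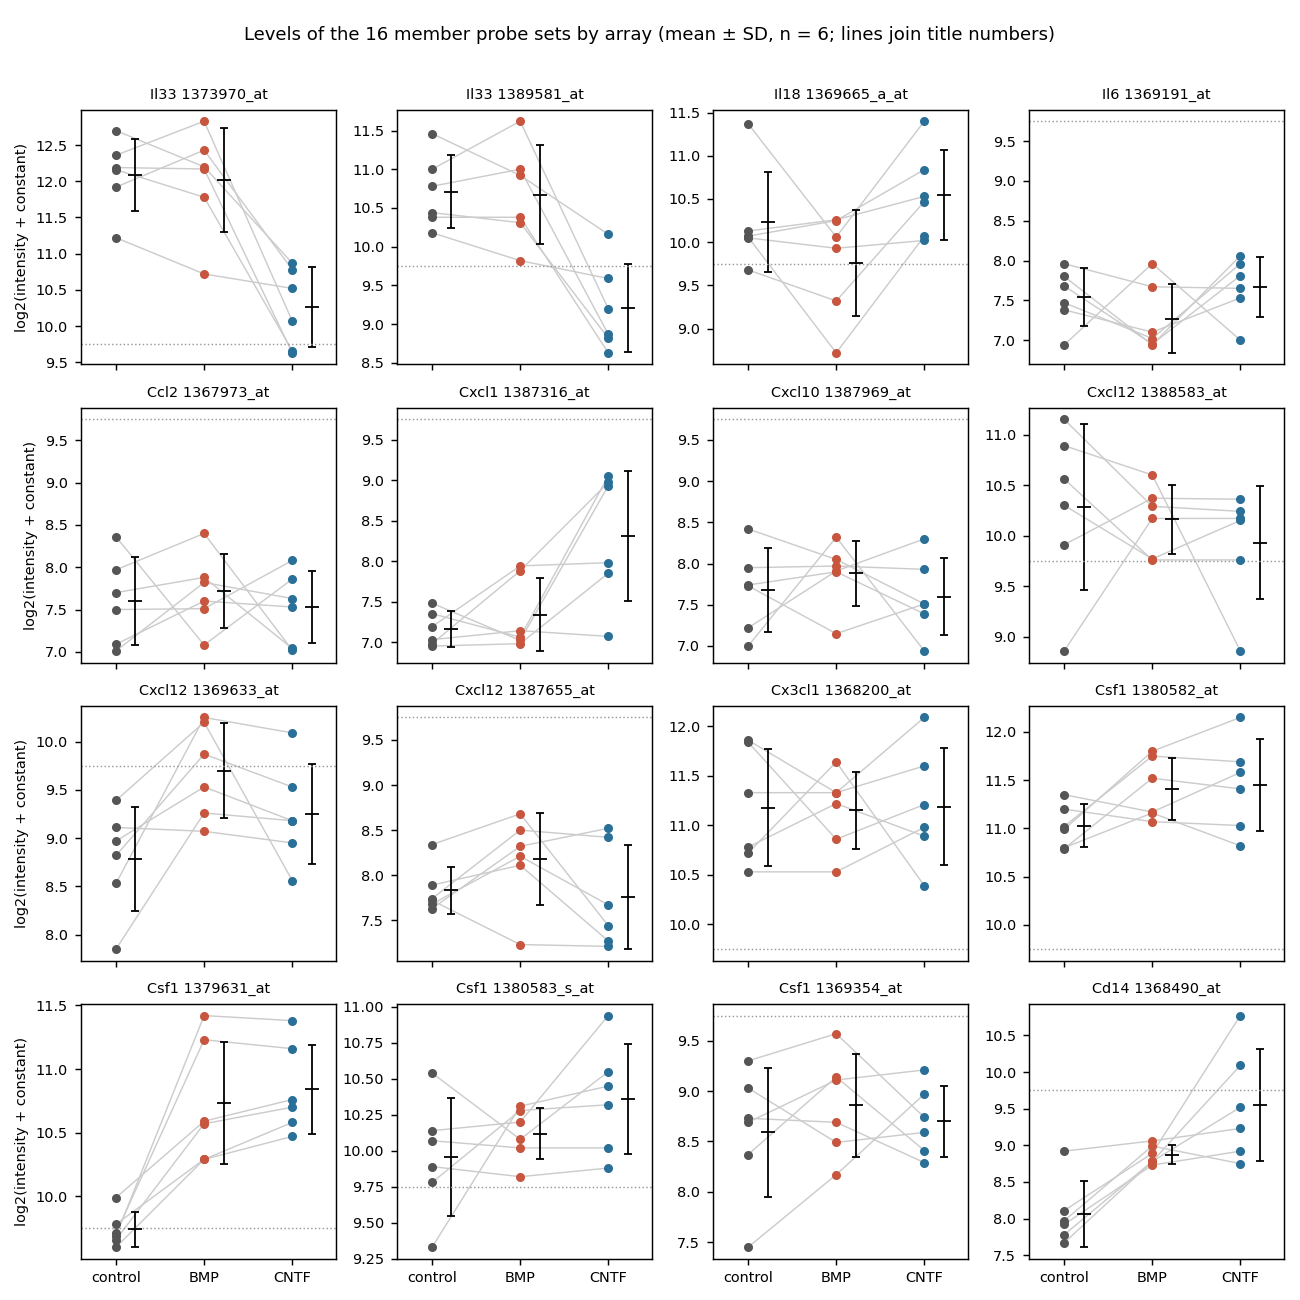
Levels of the 16 probe sets, log2(intensity + constant), on the vertical axis of each panel for control, BMP and CNTF arrays; points are single arrays, grey lines join arrays of 1 title number, bars are mean ± SD of 6 arrays and the dotted line is the table's median (9.75). For Il33 1373970_at the CNTF arrays lie at 9.63 to 10.87, below the controls at 11.22 to 12.70.

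The genes whose levels were most like Il33 across the 18 arrays were taken from 12004 probe sets at or above the table's median. They were Sez6, a neuronal membrane protein (r = 0.94), Chpt1 (0.92), Gabrb1 (0.91), Pygb (0.88) and Pitpnc1 (0.87). Gabrb1 encodes a subunit of the GABA-A receptor, Chpt1 a choline phosphotransferase, Pygb the brain form of glycogen phosphorylase and Pitpnc1 a phosphatidylinositol transfer protein. All 5 were lower with CNTF, with differences from -1.67 (Gabrb1) to -0.52 (Pitpnc1), and lay between 0.04 and 0.25 above the controls with BMP. Their differences follow from the likeness to Il33 by which they were picked, and they carry no test here.

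Interleukin-18, another member of the interleukin-1 family and a substrate of inflammatory caspases, did not pass the test against the controls. Its lowest, median and highest levels were 9.68, 10.07 and 11.37 in the controls, 8.72, 10.00 and 10.26 with BMP, and 10.02, 10.50 and 11.40 with CNTF. Number 1 was the highest array in the control and CNTF groups. The difference from control was -0.47 ± 0.30 with BMP (adjusted p = 0.458) and 0.33 ± 0.30 with CNTF (adjusted p = 0.813). Without control 1 these were -0.24 and 0.56. Against CNTF the BMP array was lower in 6 of 6 pairs. That difference was -0.80 ± 0.30, with an adjusted p of 0.146 as fitted and 0.0131 with the title number as a block. The genes most like Il18 over the 18 arrays were Rorb and Slc38a9 (both r = 0.85) and Actr8 (0.84).

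Interleukin-6, a cytokine of the gp130 family, was near the floor of the table. Of its 18 intensities, 14 lay under the added constant, and levels ran from 6.94 to 8.06. BMP minus control was -0.26 ± 0.22 (adjusted p = 0.596) and CNTF minus control 0.13 ± 0.22 (adjusted p = 0.926). The ranges of the 3 groups overlapped. BMP minus CNTF was -0.40 (adjusted p = 0.385, and 0.0445 with number 2 left out).

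Among the inflammatory chemokines, Cxcl1 was the one called. It encodes a neutrophil attractant that signals through Cxcr2. Control levels were 6.95 to 7.48 and BMP levels 6.98 to 7.94, while the CNTF arrays read 7.98, 7.07, 7.85, 9.05, 8.93 and 8.97. CNTF arrays 1, 4, 5 and 6 stood above every array of the other groups, and CNTF 2 lay among the controls. Intensities were under the constant on 6 of 6 control arrays, 4 of 6 BMP arrays and 2 of 6 CNTF arrays, so the size of the rise depends on the constant. The rise with CNTF was 1.15 ± 0.29 (2.21-fold, higher in 6 of 6 pairs, adjusted p = 0.0421).

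The call was lost in 18 of 28 other settings, with adjusted p from 0.0507 to 0.201. These included a constant of 16 (2.25, adjusted p = 0.0622), the 2 groups fitted alone (0.0734) and leaving out any 1 of 11 single arrays: controls 1 to 6, BMP 2, BMP 5, CNTF 4, CNTF 5 or CNTF 6. Leaving out all arrays of number 1, 3, 4, 5 or 6 lost it as well. Same-numbered differences ran from 0.04 for number 2 to 1.99 for number 6. BMP minus control was 0.18 ± 0.29 (adjusted p = 0.829), and BMP minus CNTF was -0.97 ± 0.29 (adjusted p = 0.0548, and 0.0216 with the title number as a block).

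Ccl2, the main attractant of monocytes, and Cxcl10, an interferon-induced attractant of T cells, did not pass the test in any comparison. Ccl2 levels were 7.01 to 8.36 in the controls, 7.08 to 8.40 with BMP and 7.02 to 8.08 with CNTF, and 13 of 18 intensities were under the constant. Its differences from control were 0.11 ± 0.25 with BMP (adjusted p = 0.883) and -0.08 ± 0.25 with CNTF (adjusted p = 0.969). Cxcl10 levels were 7.00 to 8.42, 7.15 to 8.32 and 6.94 to 8.30 in the same order, with 9 of 18 intensities under the constant. It differed from control by 0.21 ± 0.25 with BMP (adjusted p = 0.75) and by -0.08 ± 0.25 with CNTF (adjusted p = 0.969). The groups overlapped for both genes.

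Cxcl12, which guides neural and blood cell precursors through Cxcr4, had 3 probe sets that did not move together (r = 0.27, 0.43 and 0.61 over the 18 arrays). The brightest, 1388583_at, averaged 10.28 ± 0.82 in the controls, 10.16 ± 0.34 with BMP and 9.93 ± 0.56 with CNTF, with neither difference called (-0.12 and -0.35; adjusted p = 0.905 and 0.808). On 1369633_at the controls read 9.39, 8.53, 8.82, 9.11, 7.85 and 8.97 and the BMP arrays 10.20, 10.25, 9.87, 9.07, 9.26 and 9.53. Here 5 of 6 BMP arrays were above their same-numbered control, and BMP 4 at 9.07 was just below control 4 at 9.11. The BMP difference was 0.92 ± 0.28 (1.89-fold) with an adjusted p of 0.0585 as fitted and 0.0247 with the title number as a block. It also passed when control 1, BMP 4, CNTF 1, CNTF 2 or number 4 was left out (adjusted p = 0.0416, 0.033, 0.049, 0.0447 and 0.0436), and when dim probe sets were dropped (0.0476). That with CNTF was 0.47 ± 0.28 (adjusted p = 0.605). The dimmest probe set, 1387655_at, differed by 0.34 ± 0.26 with BMP (adjusted p = 0.548) and by -0.08 ± 0.26 with CNTF (adjusted p = 0.971). Markers of fibroblasts and mural cells, which can also make Cxcl12, summed to 3465 to 12475 in the controls, 13440 to 77268 with BMP and 2541 to 25311 with CNTF, and their part in the result was not tested. The probe sets most like the brightest one were of Klf3 (r = 0.74) and Tpm1 (2 probe sets, both 0.73).

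Cx3cl1, the membrane-bound chemokine of neurons that acts on microglial Cx3cr1, showed no difference beyond the spread of the arrays. Its means were 11.18 ± 0.59 in the controls, 11.15 ± 0.39 with BMP and 11.19 ± 0.59 with CNTF. Single arrays ranged over 10.39 to 12.09, and control 4 and CNTF 4 were the highest of their groups. The differences were -0.02 ± 0.28 with BMP (adjusted p = 0.981) and 0.02 ± 0.28 with CNTF (adjusted p = 0.994). The genes most like it were Pitrm1 and Mipol1 (both r = 0.85) and Ccm2 (0.82).

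Csf1, the growth factor of microglia and macrophages, rose with both factors on 1 of its 4 probe sets. On 1379631_at the controls lay close together at 9.66, 9.71, 9.69, 9.78, 9.60 and 9.99. The BMP arrays read 10.57, 11.23, 11.42, 10.29, 10.29 and 10.59, and the CNTF arrays 10.70, 11.16, 11.38, 10.58, 10.47 and 10.76. Every treated array was above every control, and numbers 2 and 3 were the highest in both treated groups. BMP minus control was 0.99 ± 0.20 (1.99-fold, 6 of 6 pairs, adjusted p = 0.00469). CNTF minus control was 1.10 ± 0.20 (2.15-fold, 6 of 6 pairs, adjusted p = 0.0032). Both differences use the same 6 controls. BMP minus CNTF was -0.11 ± 0.20 (adjusted p = 0.868).

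The other Csf1 probe sets were not called. The brightest, 1380582_at, averaged 11.03 ± 0.22 in the controls, 11.41 ± 0.32 with BMP and 11.45 ± 0.48 with CNTF, differing by 0.38 ± 0.19 and 0.42 ± 0.19 (adjusted p = 0.3 and 0.398). It correlated with 1379631_at at r = 0.81. Probe set 1380583_s_at differed by 0.16 ± 0.19 and 0.40 ± 0.19 (adjusted p = 0.747 and 0.439), and the dimmest, 1369354_at, by 0.27 ± 0.28 and 0.11 ± 0.28 (adjusted p = 0.701 and 0.961). All 4 differences were above 0 in both comparisons as fitted, but with single arrays or numbers left out 1380583_s_at reached -0.01 with BMP and 1369354_at -0.17 with CNTF. Probe sets 1380582_at and 1380583_s_at are annotated to the same transcript record and are not separate evidence. The genes most like the brightest probe set were Slc29a3 and Ly6h (both r = 0.82) and Smarca2 (0.80).

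Cd14, the co-receptor that hands lipopolysaccharide to Tlr4 and is a classical gene of macrophages, was highest with CNTF. Controls read 7.97, 7.67, 8.11, 7.92, 8.92 and 7.78, and the BMP arrays lay in the narrow band of 8.73 to 9.06. The CNTF arrays read 8.75, 10.09, 10.77, 8.92, 9.23 and 9.52. Control 5 lay apart from the other controls, level with CNTF 4 and above CNTF 1, and is the array that makes the groups overlap. The CNTF difference was 1.48 ± 0.28, or 2.8-fold, and the CNTF array was higher in 6 of 6 pairs, by 0.30 for number 5 and by 2.66 for number 3. With all arrays of number 2 left out it was 1.30.

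BMP minus control for Cd14 was 0.81 ± 0.28 (1.75-fold), higher in 6 of 6 pairs, with an adjusted p of 0.103 as fitted and 0.0531 with the title number as a block. It passed without control 5 (0.98, adjusted p = 0.0419), without CNTF 3 (0.0411) and when the BMP and control arrays were fitted alone (0.0321). Those were the 2 that passed of 24 settings with arrays or numbers left out, where the adjusted p reached 0.266, and the fit of 2 groups. The difference is a description only, since it holds the controls against which Cd14 was chosen. BMP minus CNTF was -0.67 ± 0.28, a description only, since it holds the CNTF arrays on which Cd14 was chosen. The 16 microglia and macrophage markers summed to 1709 to 2589 in the controls, 1766 to 2225 with BMP and 1636 to 2365 with CNTF, and their part in the result was not tested.

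**Figure D2:**
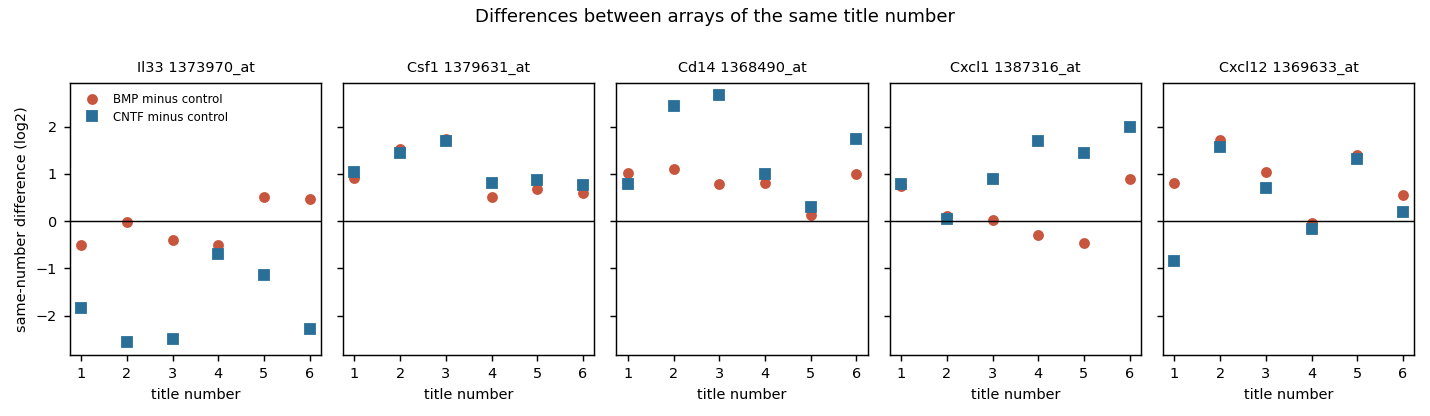
Differences between arrays of the same title number for 1 probe set each of Il33, Csf1, Cd14, Cxcl1 and Cxcl12, in log2 units, against the title number. Circles are BMP minus control and squares CNTF minus control. Where a gene has several probe sets, the one with the largest difference of group means from control is shown. For Il33 the squares run from -2.56 to -0.70 and the circles from -0.50 to 0.51.

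Counted together, 5 of the 16 probe sets were called with CNTF, 3 higher and 2 lower, against 2.32% of all probe sets. Of these, 3 belong to Il33 and Cd14, for which the choice of genes used that comparison, so nothing is read from the count. With the title number as a block it was again 5 of 16, against 7.57%. With BMP 1 of 16 was called, against 6.01% of all probe sets, and with the block 2 of 16, against 16.7%. Between BMP and CNTF 2 of 16 were called, both of Il33, against 6.23% of all probe sets, and with the block 4 of 16, against 15.1%. That comparison holds the CNTF arrays on which Il33 was chosen, and nothing is read from its count either. The median size of the difference, ignoring its sign, was 0.23 for the members and 0.17 for all probe sets with BMP. With CNTF it was 0.38 and 0.13, where the members include the Il33 and Cd14 differences that the choice used.

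**Figure D3:**
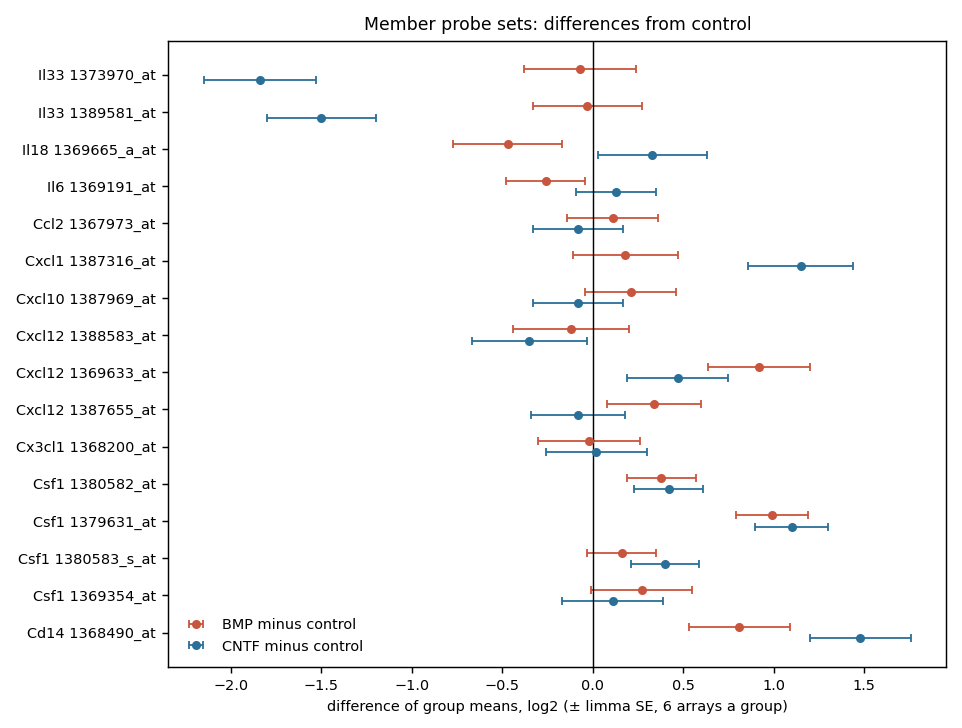
Differences of group means from control for the 16 probe sets, on the horizontal axis in log2 units, with bars of 1 limma SE; red is BMP minus control and blue CNTF minus control. Il33 lies at -1.84 and -1.50 with CNTF and near 0 with BMP, while Csf1 1379631_at lies at 0.99 and 1.10.

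The genes around these cytokines were taken from 4 lists: their receptors, enzymes that process or release them, NF-kB and MyD88 signalling, and other cytokines and chemokines. Of 75 symbols 69 were measured, and each gene was read from its brightest probe set. The lists were drawn up with earlier results of these data known. Their counts and calls therefore describe these genes and lend no independent support. With CNTF 6 of the 69 rose and 0 fell by limma, against 2.03% and 0.823% of all named genes. At an unadjusted p under 0.05, 12 were higher and 4 lower. No share of all named genes was taken without adjustment, so nothing is read from this or the other unadjusted counts. With the title number as a block 11 rose and 2 fell, against 5.42% and 4.05%. With BMP 3 rose and 1 fell, against 4.21% and 3.02% of all named genes (8 and 5 with the block, against 10.6% and 9.28%). The median difference over the 69 genes was 0.03 in both comparisons, beside 0.00 with CNTF and 0.01 with BMP over all named genes.

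Of 16 measured receptor genes, 3 had a mean at or above the table's median, 2 rose with CNTF and 1 with BMP. Il6st, which encodes gp130, the signalling subunit shared by the receptors for CNTF and interleukin-6, read 12.06 to 12.56 in the controls and 12.94 to 13.35 with CNTF. These groups did not overlap, and the difference was 0.80 ± 0.13 (6 of 6 pairs, adjusted p = 0.0016). With BMP it was higher by 0.40 ± 0.13 in 6 of 6 pairs, with an adjusted p of 0.0828 as fitted and 0.00878 with the title number as a block. Between the factors BMP minus CNTF was -0.40 (adjusted p = 0.08, block 0.00811). On the other 3 Il6st probe sets the CNTF differences were 0.86, 0.63 and 0.62 (adjusted p = 5e-04, 0.00567 and 0.061). Those with BMP were 0.50, 0.21 and 0.19 (adjusted p = 0.0207, 0.368 and 0.627). BMP minus CNTF on these 3 was -0.36, -0.41 and -0.43 (adjusted p = 0.111, 0.0456 and 0.162). Tlr2, a receptor for bacterial lipoproteins that works with Cd14, rose by 1.20 ± 0.30 with CNTF (adjusted p = 0.0378, 6 of 6 pairs) from 7.32 ± 0.53 to 8.53 ± 0.45. This call was lost without any 1 of 10 arrays (controls 1 to 5, CNTF 1, 2, 4, 5 or 6; highest adjusted p 0.0913) and without number 1, 2, 3, 4 or 5. BMP minus CNTF for Tlr2 was -0.79 (adjusted p = 0.147, block 0.0294). Ly96, the MD-2 protein that binds lipopolysaccharide beside Tlr4, ranged over 8.27 to 8.68 in the controls and 8.79 to 9.26 with BMP. It rose by 0.52 ± 0.13 (6 of 6 pairs, adjusted p = 0.0212), and the call was lost without number 1, 2, 3 or 6. BMP minus CNTF for Ly96 was 0.39 (adjusted p = 0.0893, block 0.0423).

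The remaining receptors did not pass the test as fitted. Il1rl1, the receptor for interleukin-33, averaged 7.39 ± 0.37 in the controls and differed by 0.00 ± 0.23 with BMP (adjusted p = 0.995) and by -0.06 ± 0.23 with CNTF (adjusted p = 0.973). Its other probe set, also dim at 7.2 in the controls, differed by -0.04 with BMP and 0.35 with CNTF (adjusted p = 0.942 and 0.424). BMP minus CNTF on it was -0.39 (adjusted p = 0.204). Tlr4, Cx3cr1 and Csf1r averaged 7.74, 7.82 and 8.11 in the controls, and their differences ranged from -0.43 (Tlr4 with CNTF, adjusted p = 0.429) to 0.10 (Csf1r with CNTF, adjusted p = 0.945). The Cxcl12 receptors were bright. Cxcr4 averaged 14.02 ± 0.63 in the controls, 14.17 ± 0.43 with BMP and 13.58 ± 0.40 with CNTF. BMP minus CNTF was 0.58 ± 0.26, higher in 6 of 6 pairs, with an adjusted p of 0.23 as fitted and 0.00713 with the title number as a block. Ackr3, the scavenging receptor for Cxcl12, averaged 12.71 ± 0.63, 12.06 ± 0.58 and 12.12 ± 0.56. It was lower in 6 of 6 pairs with each factor, at -0.65 ± 0.31 with BMP (adjusted p = 0.261, block 0.000482) and -0.59 ± 0.31 with CNTF (adjusted p = 0.503, block 0.00215). Its control 1, at 13.83, and the treated arrays of number 1, at 12.80 and 13.00, were the highest of their groups.

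Of 9 measured genes for processing and release, 1 rose with CNTF. Casp4, the inflammatory caspase that senses cytosolic lipopolysaccharide and cleaves gasdermin D, read 8.09, 8.41, 8.90, 9.37, 9.60 and 10.23 in the controls. The BMP arrays read 10.08, 9.19, 8.81, 10.67, 10.18 and 10.97, and the CNTF arrays 12.08, 12.32, 12.01, 12.80, 12.82 and 13.14. All CNTF arrays were above every other array. CNTF minus control was 3.43 ± 0.37 (10.8-fold, adjusted p = 1.59e-05), the largest difference among the partner genes named here. With BMP the difference was 0.88 ± 0.37, higher in 5 of 6 pairs (adjusted p = 0.193 as fitted and 0.00686 with the title number as a block). BMP minus CNTF was -2.54 ± 0.37 (adjusted p = 0.00035). The caspase that cleaves interleukin-18, Casp1, averaged 8.02 ± 0.55 in the controls and differed by -0.31 ± 0.26 with BMP and by -0.32 ± 0.26 with CNTF (adjusted p = 0.606 and 0.776); it was named after its values were seen.

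In the NF-kB and MyD88 list, 3 of 15 genes rose with CNTF, against 2.03% of all named genes. All 3 encode nuclear or cytosolic IkB-family proteins. With the title number as a block 5 rose, against 5.42%, the others being Myd88 and Nfkb1 (adjusted p = 0.000359 and 0.0268). Nfkbia, the feedback inhibitor that holds NF-kB in the cytosol, read 11.71 to 12.27 in the controls and 12.46 to 12.88 with CNTF, a rise of 0.64 ± 0.13 (adjusted p = 0.00892; lost without number 5). Nfkbiz, a nuclear cofactor of NF-kB, read 8.44 to 9.46 and 9.65 to 10.54, a rise of 1.13 ± 0.25 (adjusted p = 0.016; lost without number 2, 4, 5 or 6). The other Nfkbiz probe set differed by 0.29 with CNTF, higher in 3 of 6 pairs (adjusted p = 0.808). Bcl3, a nuclear partner of the NF-kB subunits made from Nfkb1 and Nfkb2, read 8.30 to 8.68 and 8.75 to 9.85, a rise of 0.97 ± 0.21 (adjusted p = 0.0157; lost without number 1, 4 or 5). On these probe sets each gene was higher in 6 of 6 pairs with no overlap. The other Bcl3 probe sets differed by 2.34 and 0.99 with CNTF (adjusted p = 0.000272 and 0.0549). Bcl3 was the gene of this list that fell with BMP on its brightest probe set, by 0.75 ± 0.21 in 6 of 6 pairs (adjusted p = 0.0387). Its other probe sets were not called: BMP minus control was -0.03, lower in 3 of 6 pairs, and -0.24 (adjusted p = 0.981 and 0.721). That fall was lost without any 1 of 10 arrays (controls 1, 2, 3, 5 or 6, BMP 1 to 5; highest adjusted p 0.0846) and without number 1, 2, 3, 4 or 5.

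Of 29 other cytokines and chemokines, 0 were called with CNTF by limma, and 2 higher and 1 lower with the title number as a block. Unadjusted p-values under 0.05 were found for 2 that were higher and 2 that were lower. With BMP 2 rose. Cxcl13, the attractant of B cells, read 7.78 to 8.30 in the controls, 7.70 to 8.21 with CNTF, and 12.02, 12.55, 9.80, 8.47, 8.89 and 10.07 in BMP arrays 1 to 6. All BMP arrays were above all others, and BMP 1 and 2 were far above the rest. The difference was 2.22 ± 0.50 (adjusted p = 0.0114), lost without number 1 or number 2 (highest adjusted p 0.0517). Tgfb2, a ligand of the TGF-beta family, rose by 0.49 ± 0.14 (5 of 6 pairs, adjusted p = 0.0415), from 11.74 to 12.22. It was lost without any 1 of 12 arrays (controls 1, 2, 3, 4 or 6, BMP 1, 2, 3 or 5, CNTF 2, 3 or 6; highest adjusted p 0.103) and without number 1, 2, 3, 5 or 6. The other Tgfb2 probe set differed by 0.60 with BMP, higher in 6 of 6 pairs (adjusted p = 0.00486). Of fibroblast and mural markers, 1 of 9 rose with BMP by limma (Col1a2, +2.61, adjusted p = 0.00349), and 5 with the title number as a block. At an unadjusted p under 0.05, 4 were higher, and 0 were lower in any of these counts. Their summed intensity, given beside Cxcl12, moved in the same comparison, and the part of these markers in the results was not tested.

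Set directly against each other, BMP was higher than CNTF for 3 and lower for 5 of the 69 partner genes, against 3.74% of all named genes in each direction (7 and 12 with the title number as a block, against 9.36% and 8.81%). Lower with BMP were Bcl3 (-1.73 ± 0.21, adjusted p = 5.74e-05), Nfkbia (-0.72), Nfkbiz (-1.32), Casp4 and Ccl20. Ccl20, the attractant that acts on Ccr6, read 8.33 to 9.70 with BMP and 9.26 to 11.75 with CNTF, a difference of -1.51 (adjusted p = 0.0434). That call was lost without any 1 of 12 arrays (controls 1, 2, 5 or 6, BMP 2, 3, 5 or 6, CNTF 3 to 6; highest adjusted p 0.114) and without number 2, 4, 5 or 6. Against the controls Ccl20 was 1.46 higher with CNTF in 5 of 6 pairs (adjusted p = 0.0965, block 0.0225). Higher with BMP were Cxcl13 (2.31, adjusted p = 0.00793), Tgfb2 (0.60, adjusted p = 0.0119, lost without number 2 or 3) and Tgfb1. Tgfb1 read 8.86 to 9.94 with BMP and 7.59 to 8.46 with CNTF, with no overlap, a difference of 1.25 (adjusted p = 0.0117, lost without number 1). The controls had a median of 8.86 and overlapped both groups.

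**Figure D4:**
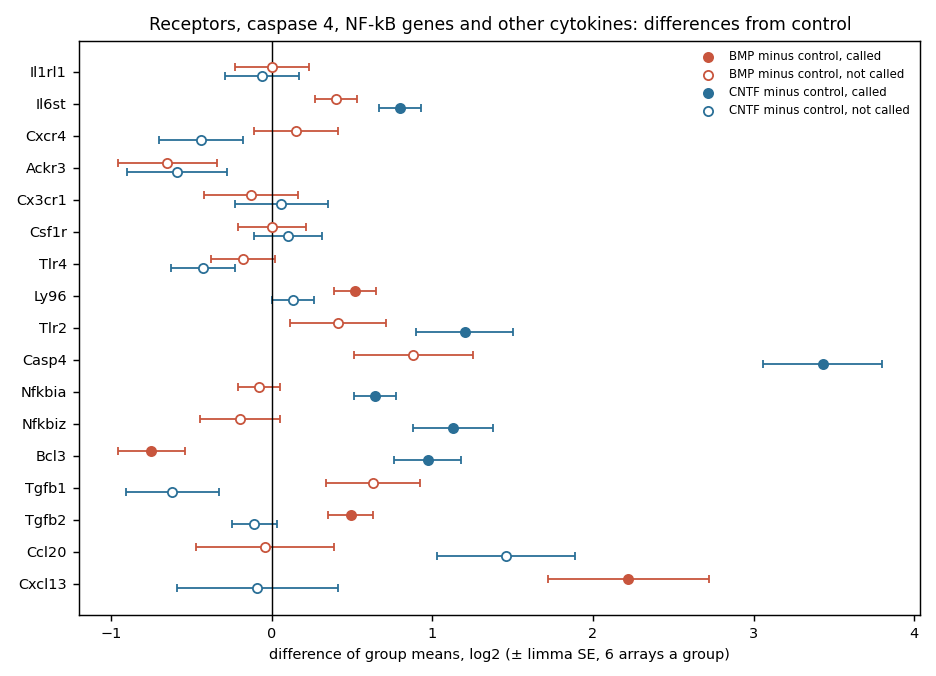
Differences of group means from control for the named receptor, caspase, NF-kB and cytokine genes, on the horizontal axis in log2 units with bars of 1 limma SE; red is BMP minus control, blue CNTF minus control, and filled points were called at an adjusted p under 0.05. Casp4 with CNTF lies at 3.43 and Cxcl13 with BMP at 2.22, while Bcl3 lies at -0.75 with BMP and 0.97 with CNTF.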

How the data were processed

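The values were deposited by the authors as 1 table of linear probe set intensity for 18 arrays, with 31099 probe sets and values from 0.404 to 162940. How probe sets were summarised and scaled is not given in the sources used here. Trimmed means (2% at each end) of 2500.7 to 2500.8 and medians of 666.5 to 817.2 per array are properties of the deposited values, and no normalization was added. Intensity was converted to log2(intensity + 116.655). Left out were 57 Affymetrix control probe sets. Symbols came from the platform annotation, and of the tested probe sets 20826 carried 1 symbol, 436 several and 9780 none. Those with several or none were not named.

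The fit of group means used limma 3.58.1 (R 4.3.3; intensity trend, all 18 arrays), with two-sided tests and Benjamini-Hochberg adjustment over 31042 probe sets. Calls required an adjusted p under 0.05. Values are mean ± SD of 6 arrays, and differences carry limma's SE. The scripts were tested on simulated data.

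Title numbers were checked for pairing. Deviations from group means correlated in all 18 same-numbered pairs (r = 0.12 to 0.49, median 0.33, beside a median of -0.09 in other pairs), so the numbers pair the arrays. The fit with the title number as a block is given beside the members whose call it changes. For the partner genes described here it is given where it changes the call of the brightest probe set. Other partner genes stand in the counts.

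The members and gene lists were chosen with earlier results of these data known. All member probe sets are named. From the partner lists every called gene is named, up to 8 per comparison, with Il1rl1, Il6st, Cxcr4, Ackr3, Cx3cr1, Csf1r and Tlr4 always. Genes most like a member are the 5 (Il33) or 3 with the highest r over 18 arrays, for members whose brightest probe set is at or above the table's median. Alternatives were a constant of 16, quantile normalization, probe sets with a mean under the 20th percentile left out, any probe set counting for a gene, 2 groups only, the block, and each array or number left out. Promoter windows came from RefSeq, GRCr8.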

Additional observations from a re-analysis of the deposited data

Results flagged for a closer look

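In 48 groups of 6 arrays, 1 for each probe set and treatment, 4 held an array whose gap to its nearest neighbour was large against the range of the group by Dixon's test, which flags about 1 in 20 groups by chance. Il18 in control 1 read 11.37, with the other controls at 9.68 to 10.13. Cxcl10 in BMP 3 read 7.15, with the other BMP arrays at 7.90 to 8.32. Cxcl12 on 1387655_at in control 1 read 8.34, with the other controls at 7.63 to 7.89. Cd14 in control 5 read 8.92, with the other controls at 7.67 to 8.11.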

How the results depend on the processing

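Each of 48 results, the 16 probe sets in 3 comparisons, was recomputed under the alternative settings. Of 1380 values, 1276 kept their direction and their side of the threshold, 66 reversed, 20 lost the call and 18 gained it. The reversals were of differences near 0 with single arrays or whole numbers left out, and the cause was not tested. For BMP against control these ranged over -0.25 to 0.19 and -0.22 to 0.14 for Il33 (1373970_at and 1389581_at), -0.03 to 0.39 for Ccl2, -0.02 to 0.36 for Cxcl10, -0.40 to 0.06 for Cxcl12 1388583_at, -0.21 to 0.17 for Cx3cl1 and -0.01 to 0.28 for Csf1 1380583_s_at. For CNTF against control they ranged over -0.22 to 0.09 for Ccl2, -0.31 to 0.09 for Cxcl10, -0.27 to 0.09 for Cxcl12 1387655_at, -0.16 to 0.18 for Cx3cl1 and -0.17 to 0.25 for Csf1 1369354_at. For BMP against CNTF they ranged over -0.05 to 0.38 for Ccl2, -0.07 to 0.36 for Cxcl12 1388583_at, -0.30 to 0.14 for Cx3cl1 and -0.16 to 0.10 for Csf1 1380582_at. With the title number as a block, 13, 13 and 19 of the 69 partner genes were called with BMP, with CNTF and between the factors, beside 4, 6 and 8 without it; the shares of all named genes called stand beside these counts in the text above. BMP against control gave 2 calls when the 2 groups were fitted alone. Leaving out arrays or numbers gave 0 to 5 calls with BMP and 2 to 7 with CNTF. With BMP 2 of the 69 genes were called by limma without control 1, 3 or 6, BMP 1, 2 or 3, or number 5 or 6, 1 without number 3, and 0 without number 1 or 2 (8 and 13 at an unadjusted p under 0.05). With CNTF 3 were called without number 4 and 2 without number 5. The block changed no other call of a member than those given with their results. Dim probe sets left out removed the values of Il6, Ccl2, Cxcl1 and Cxcl10, so that setting tested nothing for them. Precision is limited by 6 arrays a group and, for these dim genes, by intensities under the constant.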

Other observations

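A few other cytokine and signalling genes differed in the same direction in 6 of 6 same-numbered pairs without passing the test as fitted; they were picked out after their values were seen. Cxcl14, a chemokine of epithelial and neural tissue, read 9.40 to 11.64 in the controls and 11.30 to 13.30 with CNTF, a difference of 1.68 (limma adjusted p = 0.0644, and 1.06e-05 with the title number as a block). Its other probe set differed by 0.84, higher in 5 of 6 pairs (adjusted p = 0.169, block 0.078). With BMP Cxcl14 was 0.49 higher (adjusted p = 0.656, block 0.0448), and BMP minus CNTF was -1.19 (adjusted p = 0.154, block 9.68e-05). Tnf, tumour necrosis factor, averaged 7.92 in the controls and 7.30 with CNTF, a difference of -0.62 (adjusted p = 0.0925, block 0.0188), while its other probe set differed by 0.06 (adjusted p = 0.943). Mif, macrophage migration inhibitory factor, averaged 15.66 in the controls and 15.03 with BMP, a difference of -0.63 (adjusted p = 0.0531, and 4.59e-06 with the block). BMP minus CNTF for Mif was -0.46 (adjusted p = 0.189, block 4.69e-05). Myd88, the adaptor of Toll-like and interleukin-1 receptors, averaged 10.56 in the controls and 11.47 with CNTF, a difference of 0.91 (adjusted p = 0.124, and 0.000359 with the block). BMP minus CNTF for Myd88 was -0.88 (adjusted p = 0.0764, block 0.000179).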
